A study of Homo sapiens with 15 samples.

Results

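EMP1, EMP2, EMP3 and PMP22 are 4 genes of the peripheral myelin protein 22 family of small membrane proteins. Their active chromatin was compared between the breast cancer cell line MDA-MB-231 and sub-populations of it that metastasize to lung or brain. ChIP-seq was run for H3K4me3, a mark of active promoters, and for H3K27ac, which is found at active enhancers as well. A peak was taken as a member when it overlapped the body of one of these genes or lay within 100 kb of it with that gene's start as the nearest protein-coding start. This gave 37 of 84767 peaks, namely 10 of 22572 H3K4me3 peaks and 27 of 62195 H3K27ac peaks. EMP1 held 5 H3K4me3 and 12 H3K27ac peaks, EMP2 2 and 6, EMP3 2 and 2, and PMP22 1 and 7.

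MDA-MB-231 (Par) is a human triple-negative, claudin-low breast cancer cell line. LM2 and BrM2 were derived from it by selection in mice for colonization of the lung (LM2) and of the brain (BrM2), so each stands for a single selected sub-population. All 3 lines were grown in culture in DMEM with 10% FBS for 3 days and cross-linked with 1% formaldehyde, and the labels give no treatment that differed between them. Each line had 2 libraries of each mark, 12 in all, which the study's methods call biological replicates without saying how they were separated.

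The family members span the membrane 4 times and share the fold of the claudins, the proteins of tight junctions. PMP22 is a structural protein of the myelin made by Schwann cells, and changes in its gene dosage cause inherited neuropathies. EMP1, EMP2 and EMP3 are found in many epithelia and tumours, where they have been tied to proliferation, adhesion and survival. EMP2 associates with integrins and focal adhesion kinase, and it has been linked to caveolin levels and to induction of VEGF. EMP2 was chosen by the study as an example of a gene with increased H3K27ac in LM2, so its H3K27ac values are given below as a description, and nothing is read from how many of its H3K27ac peaks were called. The H3K4me3 of EMP2 and both marks at EMP1, EMP3 and PMP22 were tested.

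Total counts in peaks ranged from 3489607 to 9839629 in the H3K4me3 libraries and from 1994996 (BrM2 replicate 2) to 6450028 in the H3K27ac libraries. Of the member peaks, 5 of 10 for H3K4me3 and 13 of 27 for H3K27ac reached 10 counts in every library, so values of the others rest on few reads. In H3K4me3 the replicate numbers moved the peaks in the same way in all 3 lines, and values from a model that also holds the replicate number (the replicate block) are therefore given where they change a call. As a check of the cell type, all 5 mesenchymal markers (VIM, CD44, AXL, ZEB1 and CAV1) had a promoter H3K4me3 peak. Since peaks were called on pooled lines, having a peak gives no level. In the Par libraries the mesenchymal peaks ran from 103 (CD44) to 262 (ZEB1) in counts scaled to the library's total in peaks (CPM). These levels are not divided by peak length. All 6 luminal or epithelial markers had a peak as well, at lower levels in Par, from 2.01 (CDH1) to 40.7 CPM (GATA3). Of these, ESR1 was called higher in LM2 and in BrM2 (DESeq2, adjusted p of 1.06e-06 and 0.00686) and FOXA1 in BrM2 (0.00153), beside 2.51% and 3.61% of all H3K4me3 peaks in LM2 and in BrM2. With the block 3 were higher (ESR1, FOXA1, EPCAM) and 2 lower (PGR, GATA3) in LM2 and 4 higher in BrM2 (ESR1, FOXA1, EPCAM, PGR), where 14.4% and 17.7% of all peaks were called. Of the mesenchymal markers, none was called without the block (edgeR 0, and 1 in each line at an unadjusted p under 0.05), and with it CAV1 was lower in LM2, AXL and CD44 were higher and ZEB1 and CAV1 lower in BrM2.

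The 2 starts of EMP2 are shown first, because the mark that separated the lines lay over the inner one. EMP2 lies on the minus strand of chr16:10622279-10674489 (hg19, GRCh37). Its main transcript starts at base 10674455. A shorter annotated transcript starts at base 10653011, inside the gene, with a non-coding first exon, and it uses the same start codon (10641474) as the main transcript. The 250 bases upstream of each start are given 5′ to 3′ on the minus strand, together with the 250 bases upstream of the EMP1 start on the plus strand for comparison. Capitals mark matches, on either strand, to TGANTCA (AP-1), GGAATG (TEAD), TGTGGT (RUNX), CANNTG (E-box) and CCGGAA (ETS).
EMP2 inner start, chr16:10653012-10653261, minus strand: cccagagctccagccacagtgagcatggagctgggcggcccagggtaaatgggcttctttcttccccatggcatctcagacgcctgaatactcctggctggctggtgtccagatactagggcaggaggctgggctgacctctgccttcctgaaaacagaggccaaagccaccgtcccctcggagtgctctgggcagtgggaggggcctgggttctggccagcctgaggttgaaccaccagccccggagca
EMP2 main start, chr16:10674456-10674705, minus strand: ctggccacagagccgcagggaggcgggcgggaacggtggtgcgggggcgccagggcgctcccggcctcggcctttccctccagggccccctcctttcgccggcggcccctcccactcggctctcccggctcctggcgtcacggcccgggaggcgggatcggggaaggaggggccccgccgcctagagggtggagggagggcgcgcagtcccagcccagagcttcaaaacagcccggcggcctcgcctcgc
EMP1 main start, chr12:13349410-13349659, plus strand: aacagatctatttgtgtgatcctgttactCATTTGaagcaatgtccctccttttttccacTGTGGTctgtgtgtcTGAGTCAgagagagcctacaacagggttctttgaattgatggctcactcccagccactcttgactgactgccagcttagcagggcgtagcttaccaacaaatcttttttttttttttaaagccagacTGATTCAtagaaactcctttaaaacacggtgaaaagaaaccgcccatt

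The main EMP2 start has the composition of a CpG-rich promoter, with 27 CpG and 77.2% G or C, whereas the inner start has 5 CpG and 62.8% G or C. Neither window held a match to the 5 motifs. The EMP1 window had 3 CpG and 42.4% G or C. It held 2 AP-1 matches (bases 76 to 82 and 203 to 209, counted from its 5′ end), 1 RUNX match (61 to 66) and 1 E-box match (30 to 35). Among 19874 windows of the same length upstream of protein-coding genes, AP-1 letters occurred in 4.69%, TEAD letters in 9.83%, RUNX letters in 8.83%, E-box letters in 56.6% and ETS letters in 19.4%. A match describes these letters only.

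H3K27ac at EMP2 was highest in LM2 at 2 places within the gene, and its main promoter did not separate the lines. All levels are counts scaled to the library's total in peaks (CPM). At the peak over the inner start (chr16:10651672-10653752, exon 1 and flanking intron of the short transcript, centred 21777 bp into the gene) the level was 1.37 and 2.61 CPM in Par, against 17.5 and 13.0 CPM in LM2 and 0.765 and 2.01 CPM in BrM2. Both LM2 libraries were above all the others, and the Par and BrM2 libraries overlapped. In such bulk libraries, a mark in fewer cells and less of the mark per cell cannot be told apart. The log2 fold change was 2.89 ± 0.63 (standard error of the fit) for LM2 against Par, -0.66 ± 0.83 for BrM2 against Par and -3.56 ± 0.75 for BrM2 against LM2.

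The second place was an intronic peak (chr16:10663198-10665795, centred 9993 bp into the gene). It held 2.28 and 3.39 CPM (Par), 14.0 and 11.2 CPM (LM2) and 5.86 and 5.01 CPM (BrM2), so the 3 lines were ordered Par, BrM2, LM2 without overlap. Its log2 fold change was 2.09 ± 0.56 for LM2 against Par, 0.96 ± 0.61 for BrM2 against Par and -1.13 ± 0.54 for BrM2 against LM2. This peak held 1 AP-1 match, 1 TEAD match, 5 RUNX matches, 16 E-box matches and 0 ETS matches. The peak over the inner start held 0, 1, 2, 9 and 2. The RUNX density of the intronic peak was above that of 90.9% of the H3K27ac peaks. The ETS density of the peak over the inner start was above that of 94.4%. AP-1 letters were found in 47.3%, RUNX letters in 60.4% and ETS letters in 25.3% of all H3K27ac peaks. The AP-1 match, in capitals, is shown with its flanks because it is the sole one in these 2 peaks.
EMP2 intron, chr16:10665359-10665418, plus strand: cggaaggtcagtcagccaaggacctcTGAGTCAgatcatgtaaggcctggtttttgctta

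At the main EMP2 promoter (chr16:10673382-10675362) H3K27ac was 15.7 and 14.6 CPM for Par, 13.8 and 17.0 CPM for LM2 and 17.6 and 8.52 CPM for BrM2. These groups overlapped throughout, and the log2 fold changes against Par were -0.05 ± 0.43 (LM2) and -0.17 ± 0.44 (BrM2). A small peak upstream (chr16:10678040-10678806, centred 3934 bp before the start) had 1.596 and 1.31 CPM in the Par, 5.12 and 2.93 CPM in the LM2 and 4.08 and 4.51 CPM in the BrM2 libraries. It was thus above Par in all 4 metastatic libraries. The other 2 peaks, 46810 bp and 60347 bp from the start, held at most 6.51 CPM in any library and overlapped between Par and LM2.

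**Figure D1:**
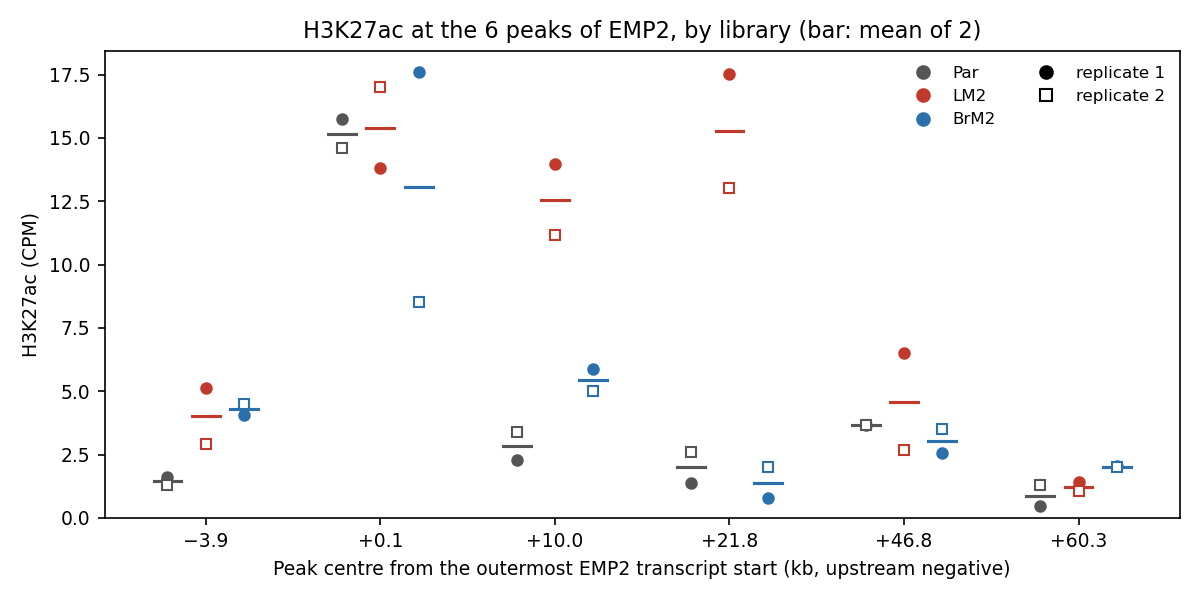
H3K27ac in CPM (linear axis) at the 6 peaks of EMP2, ordered by the distance of the peak centre from the outermost transcript start in kb. Points are single libraries (filled circles replicate 1, open squares replicate 2) of Par, LM2 and BrM2, and bars are means of 2; the LM2 points stand far above Par at the peaks 10.0 and 21.8 kb into the gene and among the Par points at the promoter.

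Summed over the 5 EMP2 peaks other than the promoter peak, H3K27ac was 9.35 and 12.3 CPM in Par, against 44.5 and 30.8 CPM in LM2 and 15.3 and 17.0 CPM in BrM2. At 3 of the 6 peaks EMP2 had both LM2 libraries above both Par libraries, beside 24.7% of all H3K27ac peaks. Of the 27 member peaks of this mark, 23 had an adjusted p and 2 were called in LM2 against Par (DESeq2, adjusted p under 0.05), beside 3.63% of all tested peaks. Both are the EMP2 peaks just described. Since EMP2 was selected on this contrast, nothing is read from that count. The 29 other H3K27ac peaks within 1 Mb of EMP2 that were tested had a median log2 fold change of 0.17 in LM2 against Par, and 1 of them was called.

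The inner EMP2 peak was compared with other H3K27ac peaks over the 6 libraries by Pearson's r of log2(CPM + 1). The 5 most alike had an r of 0.995, 0.994, 0.992, 0.990 and 0.989. In this order, the nearest gene starts were those of UBE2V2 (139715 bp away), WDR73 (0 bp), COL4A2 (194630 bp), FGF19 (27771 bp) and ITGB1 (118893 bp). The starts of UBE2V2, COL4A2 and ITGB1 lie beyond the distance limit used for member peaks, so these names only locate the peaks. These 5 peaks were the top of 20117 peaks compared, of which 76 had an r over 0.95. With only 6 libraries, 2 per line, such values describe a shared pattern with LM2 highest, and r does not measure the size of the difference. The peak nearest UBE2V2 held 14.6 and 19.1 CPM in Par against 47.0 and 41.0 CPM in LM2. The one nearest ITGB1 held 67.7 and 74.1 CPM in Par against 94.4 and 91.2 CPM in LM2. At the inner EMP2 peak the levels were 1.37 and 2.61 CPM in Par against 17.5 and 13.0 CPM in LM2.

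H3K4me3 at the main EMP2 promoter (chr16:10672658-10675046) was 61.6 and 42.6 CPM (Par), 78.3 and 56.5 CPM (LM2) and 68.3 and 33.6 CPM (BrM2). In every line replicate 1 was above replicate 2, and the groups overlapped. The log2 fold change was 0.41 ± 0.46 for LM2 against Par (DESeq2, adjusted p = 1.00, with the block 0.41 ± 0.17 and 0.1001, and called higher by edgeR with the block at 0.0196) and -0.08 ± 0.47 for BrM2 against Par (0.996). Between BrM2 and LM2 it was -0.49 ± 0.46 (DESeq2, adjusted p = 0.875). With the replicate block this difference passed the threshold, at -0.57 ± 0.17 (DESeq2 with the block, adjusted p = 0.00753). A narrow H3K4me3 peak of 338 bp lay over the inner start (chr16:10652705-10653042), within the H3K27ac peak. It held 1 and 4 counts (Par), 1 and 21 (LM2) and 0 and 1 (BrM2), so that LM2 replicate 2, the deepest library, carried most of its reads. DESeq2 did not call BrM2 against LM2 there (adjusted p = 0.462), while edgeR with the block did (log2 fold change -3.98, adjusted p = 0.00135), on these few reads. Over all 22572 H3K4me3 peaks, edgeR with the block called 3284 higher and 2619 lower in LM2 against Par. In BrM2 against LM2 it called 3598 higher and 5122 lower.

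At EMP1 one upstream H3K27ac peak fell in BrM2. The promoter peaks of both marks had lower levels in all 4 metastatic libraries than in Par, but neither passed the test without the replicate block. EMP1 lies on the plus strand of chr12:13349657-13372875. The called peak (chr12:13316291-13322868, intergenic, 6578 bp long, centred 30078 bp upstream of the start) held 36.9 and 28.7 CPM for Par, 13.8 and 24.2 CPM for LM2 and 13.0 and 10.5 CPM for BrM2. Both BrM2 libraries were below both LM2 libraries, which were below both Par libraries. In BrM2 it fell by 1.46 on the log2 scale (± 0.41; DESeq2, adjusted p = 0.0129), to 0.358 of the mean CPM of Par. The call was lost without Par replicate 1 (-1.27), Par replicate 2 (-1.63), BrM2 replicate 1 (-1.63) or BrM2 replicate 2 (-1.33), with the direction kept. The value for LM2 was -0.87 ± 0.39 (adjusted p = 0.27), and BrM2 against LM2 gave -0.60 ± 0.42 (0.611), so a difference between the metastatic lines was not shown.

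Neighbouring peaks had lower mean levels too without passing the test. The peak centred 23245 bp upstream (chr12:13323796-13329028), the highest beside the promoter, held 49.3 and 44.4 CPM in the Par, 26.7 and 33.8 CPM in the LM2 and 32.9 and 28.6 CPM in the BrM2 libraries. Its log2 fold change against Par in LM2 was -0.70 ± 0.31 (DESeq2, adjusted p = 0.266) and that of BrM2 -0.60 ± 0.32 (0.355). The peak 17900 bp upstream held 12.8 and 13.6 CPM in Par against 6.51 and 9.04 CPM in LM2 and 6.37 and 6.02 CPM in BrM2. At 41860 bp upstream the level was 13.5 and 6.53 CPM in Par, against 5.43 and 6.91 CPM in LM2 and 4.84 and 2.51 CPM in BrM2. Par and LM2 overlapped there. The 3 peaks nearer to the start, 9428 to 14853 bp upstream, held at most 9.04 CPM and overlapped between Par and LM2.

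The AP-1 matches of the called EMP1 peak are shown because the peak is the only tested H3K27ac peak of the family outside EMP2 that changed by this test. It held 3 AP-1 matches, 7 TEAD matches, 2 RUNX matches, 40 E-box matches and 1 ETS match. Its AP-1 density was above that of 66.1% and its TEAD density above that of 80.3% of all H3K27ac peaks. The peak centred 23245 bp upstream, which DESeq2 did not call, ranked higher, at 79.9% (AP-1) and 91.7% (TEAD). The uncalled H3K27ac promoter peaks of EMP1, EMP3 and PMP22 stood at 74.6%, 69.8% and 76.8% for AP-1 and at 65.3%, 57.6% and 59.6% for TEAD. A link between these letters and the call was not tested. Each AP-1 match of the called peak is in capitals with its flanks, on the plus strand.
EMP1 upstream, chr12:13318609-13318668: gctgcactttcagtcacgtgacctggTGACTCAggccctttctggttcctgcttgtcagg
EMP1 upstream, chr12:13320265-13320324: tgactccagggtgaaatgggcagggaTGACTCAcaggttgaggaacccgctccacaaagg
EMP1 upstream, chr12:13320806-13320865: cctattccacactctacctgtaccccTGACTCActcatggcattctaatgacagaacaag

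**Figure D2:**
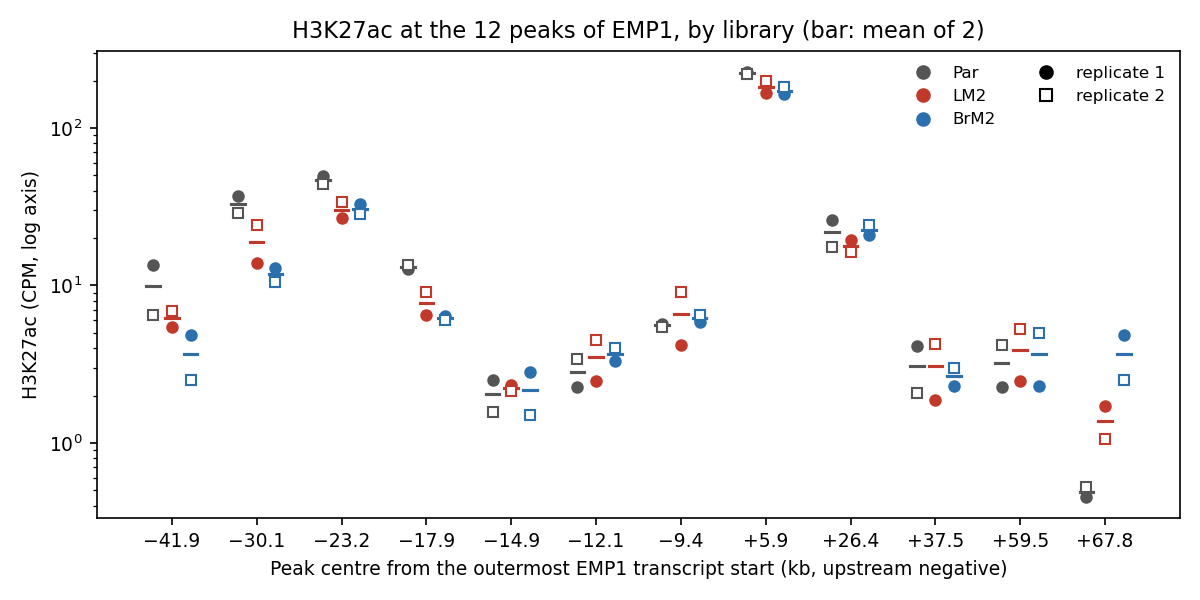
H3K27ac in CPM (log axis) at the 12 peaks of EMP1, ordered by the distance of the peak centre from the outermost transcript start in kb, upstream negative. Points are single libraries of Par, LM2 and BrM2 and bars are means of 2; at the 3 upstream peaks centred 17900 to 30078 bp from the start and at the promoter the 4 metastatic libraries sit below both Par libraries.

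The promoter peak of EMP1 was a broad H3K27ac domain of 19103 bp (chr12:13346020-13365122) that covered the start and most of the gene. It held 227 and 220 CPM (Par), 168 and 199 CPM (LM2) and 164 and 181 CPM (BrM2). All 4 metastatic libraries were below Par, yet the log2 fold changes of -0.35 ± 0.25 in LM2 (DESeq2, adjusted p = 0.657) and that of BrM2 -0.37 ± 0.25 (0.522) did not pass the test. At 5 of 12 EMP1 peaks both BrM2 libraries were below both Par libraries, and at 4 of 12 both LM2 libraries were, beside 25.6% and 18.3% of all H3K27ac peaks. Over the 12 peaks the median log2 fold changes were -0.24 (LM2) and -0.11 (BrM2), against -0.04 and -0.01 over all tested peaks.

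The surroundings of EMP1 had lower H3K27ac as well. Among other tested peaks within 1 Mb, 43 of 48 were below 0 in LM2 against Par, with a median log2 fold change of -0.37, and 37 of 52 in BrM2, with a median of -0.35. The medians of chromosome 12 were -0.11 and -0.00. H3K4me3 peaks within 1 Mb were below 0 at 17 of 25 in LM2 (median -0.30) and at 16 of 25 in BrM2 (median -0.16). The part of these neighbours in the EMP1 values of either mark was not tested.

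Downstream, the EMP1 peak 26434 bp from the start held 26.2 and 17.5 CPM for Par, 19.4 and 16.2 CPM for LM2 and 20.9 and 24.1 CPM for BrM2, with overlapping groups. The outermost peak, 67751 bp from the start, went the other way on few reads, with 2 and 2 counts (Par), 11 and 4 (LM2) and 19 and 5 (BrM2). DESeq2 gave it no adjusted p. edgeR gave a log2 fold change of 2.91 in BrM2 (adjusted p = 0.0163), where 6.88% of all peaks were called. Outside the named-gene rule, this peak was chosen after its values were seen.

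H3K4me3 at the EMP1 promoter (chr12:13349061-13353326) was 74.2 and 76.0 CPM in the Par, 38.6 and 52.8 CPM in the LM2 and 44.1 and 62.6 CPM in the BrM2 libraries. The 4 metastatic libraries were below both Par libraries, and the share of all H3K4me3 peaks with this order was not counted. The log2 fold change of LM2 was -0.70 ± 0.33 (DESeq2, adjusted p = 0.449) and that of BrM2 -0.58 ± 0.33 (0.585), neither of which passed the test. With the replicate block it was -0.69 ± 0.18 in LM2 (DESeq2 with the block, adjusted p = 0.00146) and -0.56 ± 0.17 in BrM2 (0.0111), and both passed. BrM2 and LM2 did not separate in either fit (0.13 ± 0.33, adjusted p = 0.986, and 0.687 with the block). The other 4 H3K4me3 peaks of EMP1 held at most 2.85 CPM in any library.

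EMP3, which lies on the plus strand of chr19:48824766-48833810, had no peak that passed the test against Par for either mark. Its start abuts that of ODAD1, and 1 H3K27ac peak of 7564 bp (chr19:48823321-48830884) covered the starts of both, so its reads cannot be assigned to one of these genes. It held 82.3 and 117 CPM in Par, against 106 and 116 CPM in LM2 and 93.5 and 109 CPM in BrM2. The log2 fold change of LM2 was 0.10 ± 0.28 (DESeq2, 95% interval -0.45 to 0.64) and that of BrM2 0.02 ± 0.28 (-0.53 to 0.58). The peak at the end of the gene (chr19:48832365-48832924) held at most 3.06 CPM.

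H3K4me3 at EMP3 fell into a peak at the ODAD1 side and one over the main EMP3 starts. The latter (chr19:48828110-48830292) held 22.4 and 41.6 CPM (Par), 17.7 and 34.6 CPM (LM2) and 31.2 and 52.0 CPM (BrM2). Replicate 2 was above replicate 1 in every line, and within each replicate number the order was LM2, Par, BrM2. The difference between BrM2 and LM2 was 0.59 ± 0.40 (DESeq2, adjusted p = 0.701), and with the replicate block 0.60 ± 0.21 (DESeq2 with the block, adjusted p = 0.0261), which passed the threshold. Against Par, neither line passed in either fit. The peak at the ODAD1 side (chr19:48823690-48825920), from 13.1 to 47.0 CPM, had the same order of libraries, with 0.55 ± 0.23 for BrM2 against LM2 with the block (adjusted p = 0.0721).

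PMP22 lies on the minus strand of chr17:15133090-15175609 and has several annotated starts. Both marks were strongest over its downstream cluster of starts, where neither passed the test in any contrast. The main transcript starts at base 15168643, outside these peaks, which end at 15167121 (H3K4me3) and 15167930 (H3K27ac). H3K4me3 (chr17:15162735-15167121), the sole peak of this mark in the gene, was 79.1 and 107 CPM for Par, 78.7 and 126 CPM for LM2 and 89.7 and 122 CPM for BrM2. Its log2 fold change against Par in LM2 was 0.15 ± 0.31 (DESeq2, 95% interval -0.46 to 0.77) and that of BrM2 0.13 ± 0.31 (-0.49 to 0.74). H3K27ac there (chr17:15159112-15167930) was 48.8 and 56.1 CPM in the Par, 55.5 and 70.2 CPM in the LM2 and 55.6 and 53.6 CPM in the BrM2 libraries, with log2 fold changes of 0.19 ± 0.29 (95% interval -0.37 to 0.76) and 0.06 ± 0.29 (-0.51 to 0.64).

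The upstream starts of PMP22 carried H3K27ac (chr17:15174503-15178408) but no called H3K4me3 peak. This peak was lower in the metastatic libraries, with 16.4 and 17.2 CPM in Par, against 10.2 and 11.97 CPM in LM2 and 11.7 and 10.0 CPM in BrM2. The log2 fold changes of -0.67 ± 0.41 (DESeq2, adjusted p = 0.546) and -0.61 ± 0.42 (0.549) did not pass the test. Of the peaks further upstream, the one centred 18399 bp before the start (chr17:15192658-15195358) was the highest beside the promoter. It held 15.7 and 12.3 CPM (Par), 18.6 and 10.6 CPM (LM2) and 11.7 and 10.5 CPM (BrM2), with log2 fold changes of 0.01 ± 0.43 and -0.32 ± 0.45.

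The outermost PMP22 peak had its highest levels in LM2. It lies in the body of TEKT3 (chr17:15209404-15210086, 34136 bp before the PMP22 start) and was chosen after its values were seen. It held 2.05 and 0.783 CPM for Par, 6.82 and 6.91 CPM for LM2 and 3.57 and 3.01 CPM for BrM2, an order without overlap. The log2 fold change of 2.19 ± 0.74 in LM2 missed the threshold in DESeq2 (adjusted p = 0.0728, and 0.0577 with the block) and passed it in edgeR (adjusted p = 0.0135), where 5.14% of all peaks were called. The next peak, 25902 bp before the PMP22 start, held 2.51 and 1.31 CPM in Par and 6.98 and 3.72 CPM in LM2.

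**Figure D3:**
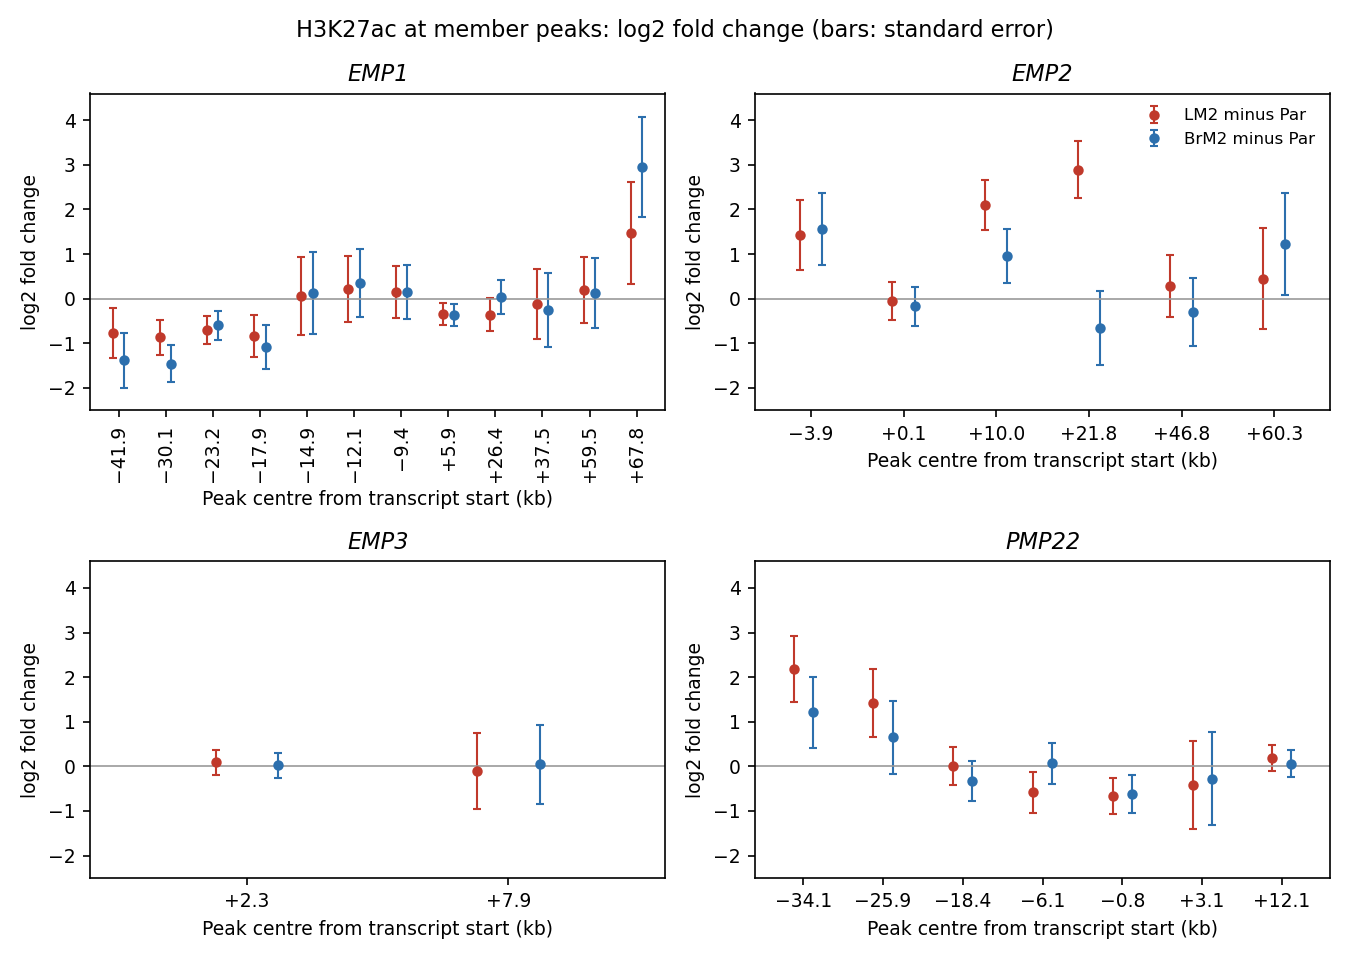
DESeq2 log2 fold change of H3K27ac against Par (bars: standard error) at each member peak of the 4 genes, in order of the distance of the peak centre from the outermost transcript start in kb. LM2 and BrM2 share the Par libraries; EMP2 rises to 2.89 in LM2 at the inner peak, EMP1 falls to -1.46 in BrM2 upstream, and both EMP3 peaks lie near 0.

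Counted over the family, H3K4me3 had 0 of 10 member peaks called in LM2 against Par, in BrM2 against Par and in BrM2 against LM2 (DESeq2), beside 2.51%, 3.61% and 3.18% of all tested peaks. DESeq2 gave an adjusted p to 7, 9 and 10 of these 10 members. edgeR without the block also called 0, and at an unadjusted p under 0.05 there were 1, 0 and 0. With the replicate block the counts were 1, 1 and 2, where 14.4%, 17.7% and 22% of all peaks were called. For H3K27ac, 24 of the 27 members had an adjusted p in BrM2 against Par and 22 in BrM2 against LM2. Of them, 1 was called in BrM2 against Par (background 5.29%) and 1 in BrM2 against LM2 (2.94%). The latter is the inner EMP2 peak, selected on its LM2 level, and nothing is read from it. The block left the H3K27ac counts at 2, 1 and 1, beside 5.44%, 8.13% and 6.17% of all peaks. Outside EMP2, the called H3K27ac peak of EMP1 in BrM2 was the sole one in these 3 contrasts, a share of the members near the background.

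The promoters of the 4 genes were also compared with each other. Per length, H3K4me3 at the promoter peak in Par was 17.6 ± 0.29 CPM per kb at EMP1 (SD, n = 2), 21.8 ± 5.63 at EMP2, 14.6 ± 6.22 at EMP3 and 21.2 ± 4.44 at PMP22. The median promoter peak had 23.4 CPM per kb, so all 4 lay in the middle or lower part of the range, at the 29.6th to 46.0th percentile. EMP1 went from the 35.7th percentile in Par to the 22.4th in LM2 and the 23.2nd in BrM2. EMP2, EMP3 and PMP22 overlapped in their Par libraries and are not ordered by these values.

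H3K27ac per length gave another order. In Par it was 13.2 ± 3.26 CPM per kb at EMP3 (SD, n = 2), 11.7 ± 0.25 at EMP1, 7.66 ± 0.40 at EMP2 and 5.95 ± 0.59 at PMP22, against a median of 7.06 over promoter peaks. EMP3 and EMP1 overlapped, and EMP1 was above EMP2 and PMP22. The EMP3 value includes reads over the ODAD1 start, so its place in this order is not that of EMP3 alone. In BrM2 the EMP2 libraries spread from 4.30 to 8.88 CPM per kb, wide enough to cover PMP22.

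**Figure D4:**
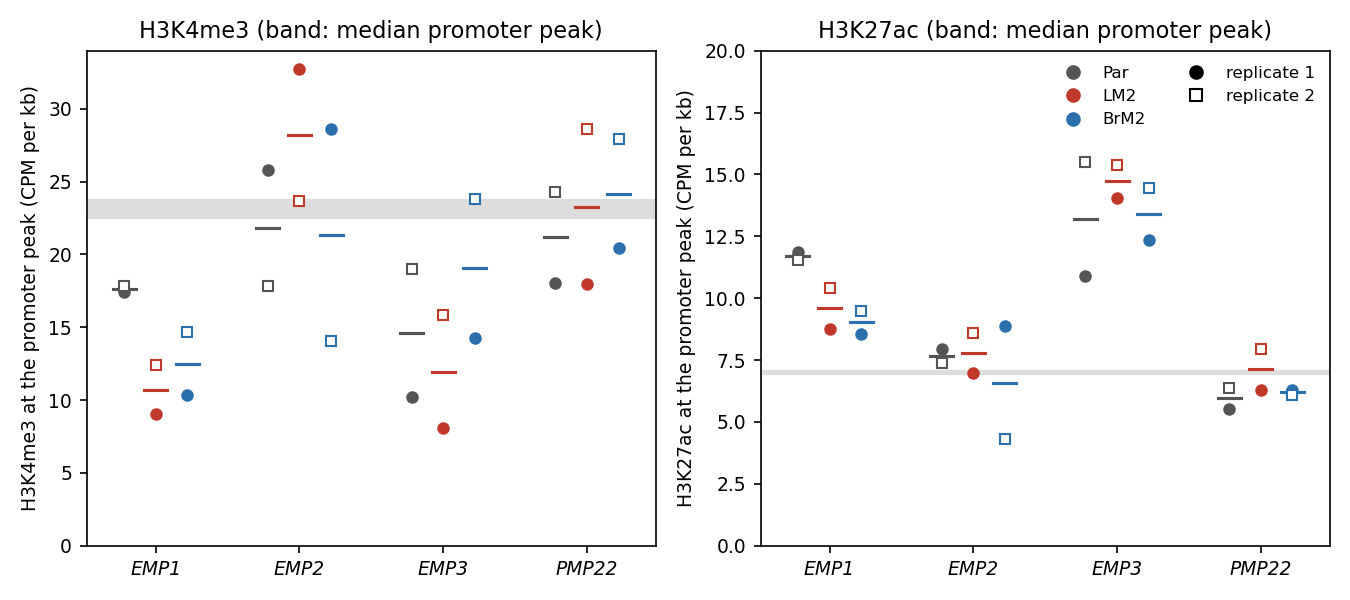
H3K4me3 (left) and H3K27ac (right) at the promoter peak of each gene, in CPM per kb of peak. Points are single libraries and bars are means of 2, and the grey band spans the median promoter peak of the 3 lines. EMP1 H3K4me3 is lower in the 4 metastatic libraries than in Par, a difference not called without the replicate block.

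Of 12 other genes of the PMP22 and claudin fold, 8 had a promoter H3K4me3 peak. In LM2, 1 of these was lower and none higher, beside 2.51% of all H3K4me3 peaks called. In BrM2, 2 were higher and 2 lower, beside 3.61%. CLDN4, a tight junction claudin of epithelia, was 43.6 and 71.3 CPM in the Par, 2.75 and 7.42 CPM in the LM2 and 9.60 and 19.5 CPM in the BrM2 libraries. It fell by 3.44 ± 0.46 on the log2 scale in LM2 and by 2.04 ± 0.44 in BrM2 (DESeq2, adjusted p = 7.64e-11 and 2.67e-04). CLDN7 rose in BrM2 by 1.28 ± 0.34 (adjusted p = 0.00754) and TMEM47 by 3.21 ± 0.83 (0.00539), while CLDN11, the claudin of oligodendrocyte myelin, fell by 3.14 ± 0.80 (0.00513). TMEM47 held 0.860 and 0.894 CPM in Par against 8.95 and 7.68 CPM in BrM2. CLDN11 held 4.87 and 4.47 CPM in Par against 0.655 and 0.496 CPM in BrM2, so both changes rest on few reads in the lower line. The median over the 8 was -0.35 in LM2 and -0.14 in BrM2, against 0.01 and -0.02 over all H3K4me3 peaks.

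All 13 genes that EMP2 or its relatives are known to bind or act through had a promoter H3K4me3 peak, and DESeq2 called none of them against Par in either line. At an unadjusted p under 0.05 there were 2 in each line, CAV1 and CAV2, and edgeR called 0. With the replicate block 2 were lower in LM2 and 6 in BrM2, beside 14.4% and 17.7% of all peaks called. CAV1, which encodes caveolin-1, held 171 and 207 CPM in Par, against 85.8 and 138 CPM in LM2 and 101 and 137 CPM in BrM2, and its log2 fold changes against Par were -0.75 ± 0.31 (LM2) and -0.74 ± 0.31 (BrM2) (DESeq2, adjusted p = 0.28 and 0.228, and 6.44e-08 and 5.31e-08 with the block). CAV2 gave -0.73 ± 0.30 and -0.82 ± 0.30. VEGFA, with -0.43 ± 0.38 in BrM2, passed the test with the block alone (DESeq2 with the block, adjusted p = 1.11e-04). So did HIF1A (-0.43 ± 0.30, adjusted p = 0.00176), ITGB1 (-0.29 ± 0.37, 0.0173) and ITGB5 (-0.30 ± 0.41, 0.0382) in BrM2.

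Among genes of myelin and its control, 3 (MBP, EGR2 and POU3F1) had a promoter H3K4me3 peak. None of the 3 was called against Par by DESeq2 and 0 by edgeR, with 1 (POU3F1) at an unadjusted p under 0.05 in LM2 and 0 in BrM2. With the block, POU3F1 was higher in LM2 and MBP in BrM2, beside the same 14.4% and 17.7%.

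At the edge of the peak assignment, the EMP1 member farthest from its gene lay 44357 bp beyond it. A peak 55253 bp from EMP1 was left out because GSG1 starts nearer, and it held 3.65 and 2.09 CPM (Par), 2.33 and 1.86 CPM (LM2) and 1.53 and 2.51 CPM (BrM2). The nearest peak beyond the distance limit with EMP1 as its nearest start, 156285 bp away, held 5.93 and 6.53 CPM for Par, 3.41 and 3.19 CPM for LM2 and 9.43 and 12.03 CPM for BrM2.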

How the data were processed

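H3K4me3 and H3K27ac ChIP-seq of Par, LM2 and BrM2 was analysed from the 2 tables of raw read counts per peak that the authors deposited, with 2 libraries per line and mark. Per the methods and the submitters' processing notes, reads were trimmed (Trimmomatic 0.32), aligned to hg19 (Bowtie2 2.3.4.3), marked for duplicates (Picard 2.18.21) and merged across the lines, broad consensus peaks were called (MACS2 2.1.2), and reads extended to 150 bases were counted in them (featureCounts 1.6.0). The deposited lists of peak regions gave the same regions. Since peaks were called on pooled lines, a peak exists for every line whatever its level. The 3 input samples were not analysed here.

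Counts were divided by each library's total in peaks and given as CPM. Differences were tested with DESeq2 1.42.0 (R 4.3.3) in a fit of the 6 libraries of a mark by line (3 residual degrees of freedom, all peaks, Wald test, Benjamini-Hochberg adjustment over all peaks with its filter on low means), called at an adjusted p under 0.05. edgeR 4.0.16 (quasi-likelihood), a count minimum of 10, removal of chromosome medians, the replicate block and leaving out each library were alternatives. The DESeq2 and edgeR fits without the block were tested on simulated data, for LM2 against Par. The fits with the block and the other alternatives were not. Intervals are 95% intervals of the fit. Gene models were from GENCODE release 44 on hg19, and promoter peaks lay within 2 kb of a transcript start.

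Replicate numbers came from the sample titles, which name no shared day or batch. Deviations of same-numbered libraries from their line means correlated at 0.857, 0.796 and 0.837 for H3K4me3 and at 0.409, 0.612 and 0.484 for H3K27ac (Par with LM2, Par with BrM2, LM2 with BrM2), so the numbers were taken as pairs and the block (2 residual degrees of freedom) is given where it changed a call. Replicates of a line had Pearson's r of 0.938 to 0.982 over peaks and differed by more than counting noise (chi-square per degree of freedom 2.12 to 12.3), so none was a repeated deposit.

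For each gene, the text names the promoter peak of each mark, every other peak called in a contrast, and the highest other H3K27ac peak. Further member peaks are given as values. The family, the lists of related genes (fold relatives, binding partners, myelin genes) and of markers (mesenchymal, luminal or epithelial) and the motifs were chosen with earlier results of these data known. Some listed genes are not reported here.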

Additional observations from a re-analysis of the deposited data

Results flagged for a closer look

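Both results below came from a direct comparison of BrM2 with LM2 at H3K4me3 promoter peaks with the replicate number as a block. At EMP2 the log2 fold change was -0.57 (DESeq2 with the block, adjusted p = 0.00753), with BrM2 lower than LM2 in 2 of 2 replicate pairs. At EMP3 it was 0.60 (DESeq2 with the block, adjusted p = 0.0261), with BrM2 higher in 2 of 2 pairs. Neither passed without the block (adjusted p = 0.875 and 0.701), and with the block 22% of all H3K4me3 peaks were called in this contrast.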

How the results depend on the processing

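With 2 libraries per line, calls rest on single libraries. For H3K4me3, where no member was called without a block, the block gave 1 call in LM2 against Par, 1 in BrM2 against Par and 2 in BrM2 against LM2 (edgeR with the block 2, 1 and 4). Of all 22572 H3K4me3 peaks, edgeR with the block called 3284 higher and 2619 lower in LM2 against Par. In BrM2 it called 3401 higher and 4111 lower against Par, and 3598 higher and 5122 lower against LM2. For H3K27ac the 2 calls in LM2 against Par became 6 by edgeR with the replicate block and 1 with a minimum of 10 counts, and ranged from 0 to 2 with a library left out (0 without Par replicate 1, LM2 replicate 1 or LM2 replicate 2). The 1 call in BrM2 against Par became 2 by edgeR and 6 by edgeR with the block, and ranged from 0 to 1 (0 without either Par or either BrM2 library). The 1 call in BrM2 against LM2 became 2 by edgeR with the block and 0 with the count minimum, and ranged from 0 to 1 (0 without LM2 replicate 1 or BrM2 replicate 1). The count minimum took the inner EMP2 peak, with 3 and 4 counts in BrM2, out of the fit before any test. Of all 62195 H3K27ac peaks, edgeR with the block called 4803 higher and 3410 lower in LM2 against Par. In BrM2 it called 5393 higher and 4499 lower against Par, and 4045 higher and 3758 lower against LM2. With DESeq2, the block changed no other call of a named member peak than those given beside the results. Each tested log2 fold change of the named peaks (all but EMP2 H3K27ac) was refitted under each alternative setting, in the 3 contrasts. Of these refits, 376 kept direction and call, 13 gained a call, 4 lost it and 33 reversed, and the cause was not tested. In BrM2 against Par, EMP3 H3K27ac reversed at the promoter to -0.0485 with chromosome medians removed, and at its gene end to -0.00593 with the block and -0.0311 with chromosome medians removed. PMP22 H3K27ac 18399 bp upstream reached -0.0212 and -0.0556 under these settings in LM2, and PMP22 H3K4me3 reached 0.0370 in BrM2 against LM2 with the count minimum. With a library left out, values of LM2 against Par that changed sign ranged from -0.0717 to 0.88 (EMP2 H3K4me3 promoter), -0.14 to 0.37 and -0.23 to 0.0273 (EMP3 H3K27ac, promoter and gene end), -0.63 to 0.0679 (EMP3 H3K4me3), -0.000212 to 0.38 and -0.44 to 0.33 (PMP22 H3K27ac, promoter and 18399 bp upstream) and -0.0300 to 0.29 (PMP22 H3K4me3). Those of BrM2 against Par ranged from -0.85 to 0.45 (EMP2 H3K4me3), -0.21 to 0.30 and -0.60 to 0.42 (EMP3 H3K27ac) and -0.0368 to 0.17 (PMP22 H3K27ac promoter). Those of BrM2 against LM2 ranged from -0.0895 to 0.29 and -0.17 to 0.12 (EMP1 H3K27ac, 23245 bp upstream and promoter), -1.25 to 0.0491 (EMP2 H3K4me3), -0.18 to 0.0460 and -0.49 to 0.53 (EMP3 H3K27ac), -0.32 to 0.0559 and -0.66 to 0.11 (PMP22 H3K27ac) and -0.18 to 0.15 (PMP22 H3K4me3). For EMP2 H3K27ac, described only, the inner peak ranged from 2.48 to 3.42 in LM2 against Par and from -1.36 to 0.0376 in BrM2 against Par, the intronic peak from 1.82 to 2.40 in LM2 against Par, and the promoter from -0.22 to 0.12, -0.82 to 0.22 and -0.78 to 0.27 in the 3 contrasts. Depth limits the peaks under 10 counts in a library, with BrM2 replicate 2 the shallowest for H3K27ac.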
